A study of Mus musculus with 3 samples.

Results

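Keratin genes were described as a family in single cells of mouse dorsal skin. The members were all gene rows of the deposited tables whose symbol is Krt followed only by digits, which gave 47 of 27998 genes. By the numbering of the family, 25 of them encode type I and 21 encode type II keratins, and Krt222 stands apart. All 47 gene identifiers were found in the GENCODE annotation of GRCm38, with 25 genes on chromosome 11 and 22 on chromosome 15, where Krt18 was the 1 type I gene among the type II genes. The 4 keratins with a letter in their symbol (Krt6a, Krt6b, Krt33a, Krt33b) and the 57 rows of keratin-associated proteins (Krtap) were not members.

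Keratins form the intermediate filaments of epithelial cells, and a filament needs a type I partner and a type II partner. In the epidermis, cells of the basal layer carry Krt5 with Krt14 and also Krt15, and cells that leave this layer begin to make Krt1 with Krt10. Filaments are anchored at desmosomes and hemidesmosomes, and in the outermost living layers they are bundled under a cornified envelope. The layers of the hair follicle carry further keratins of their own.

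The skin came from C57BL/6 mice at 3 ages (neonatal, 3 weeks or 2 months old), each represented by a single sequencing library, no treatment in the labels and no statement of how many animals a library holds. Biopsies had been dissociated with collagenase D and DNase1, and libraries made with a 10x Genomics kit that reads the 3′ ends of transcripts and counts each molecule once, as a unique molecular identifier (UMI). Since transcript ends were counted, UMI counts were not divided by gene length, and a level is given as CPM, the gene's UMIs scaled to 1000000 UMIs of the same cells. With 1 library per age, differences between ages have no replicate error and no test. P-values for differences between kinds of keratinocyte rest on a spread pooled over all kinds in 3 libraries that also differ in age. That spread came from 11 summed profiles, with 5 residual degrees of freedom. The design text gives no question about keratins.

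The libraries held between 84086755 and 113874172 UMIs. After filters, 7436 neonatal, 8689 3-week and 8984 2-month cells were kept, with median depths of 8506.5, 11006 and 8280 UMIs. Pairs of libraries shared between 23 and 31 cell barcodes. Cells were clustered without any keratin or Krtap gene, and 6 clusters were keratinocyte-like, each with at least 10 of 11 markers detected (among them Trp63, Col17a1, Perp, Sfn and Lgals7). They held 299, 1474 and 1741 cells in the neonatal, 3-week and 2-month library.

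Keratinocyte-like cells were sorted in silico by genes outside the family. The basal gate took cells with Trp63, the epithelial stem cell regulator, or Col17a1, a hemidesmosome collagen, and none of the other gate genes. The Krtdap gate took cells with Krtdap, a gene of differentiating keratinocytes, without Lor. The Lor gate took cells with Lor, which encodes the cornified envelope protein loricrin. The Lhx2 gate took cells with Lhx2, a transcription factor of hair follicle progenitors, and without Krtdap or Lor. The 3-week and 2-month libraries gave 682 and 657 basal cells, whereas 18 neonatal basal cells were too few to use. The basal side of each contrast therefore holds no neonatal profile under the settings used here. Fitted fold changes against the basal gate still draw on neonatal profiles of the other gates. Log2 ratios counted within a library exist at 3 weeks and 2 months only. The Krtdap gate held 177, 606 and 871 cells, the Lor gate 29, 76 and 79, and the Lhx2 gate 47, 60 and 43 in order of age. The gate on Fa2h, a lipid enzyme gene of the sebaceous lineage, held 0, 6 and 14 keratinocyte-like cells, under the minimum of 20 cells, and was not compared under the filters used here.

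Promoters of 4 members are shown for the levels that follow: Krt5 from the basal set, Krt10 and Krt77 from the suprabasal set, and Krt79. The sequences are the 150 bases before the RefSeq transcript start in GRCm38.p6, written 5′ to 3′ along the minus strand, on which all 4 genes lie. Capitals mark the TATA-box letters TATAAA. The Krt5 window is chr15:101712906-101713055, the Krt10 window chr11:99389365-99389514, the Krt77 window chr15:101869706-101869855 and the Krt79 window chr15:101940325-101940474.
Krt5: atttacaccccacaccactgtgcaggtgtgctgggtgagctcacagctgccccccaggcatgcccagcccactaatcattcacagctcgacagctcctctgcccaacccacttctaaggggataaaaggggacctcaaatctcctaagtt
Krt10: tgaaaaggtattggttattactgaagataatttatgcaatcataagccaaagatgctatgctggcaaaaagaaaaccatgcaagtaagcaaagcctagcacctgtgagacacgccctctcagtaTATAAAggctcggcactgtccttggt
Krt77: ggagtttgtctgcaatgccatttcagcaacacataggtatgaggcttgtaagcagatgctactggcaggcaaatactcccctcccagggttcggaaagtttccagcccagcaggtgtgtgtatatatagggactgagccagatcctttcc
Krt79: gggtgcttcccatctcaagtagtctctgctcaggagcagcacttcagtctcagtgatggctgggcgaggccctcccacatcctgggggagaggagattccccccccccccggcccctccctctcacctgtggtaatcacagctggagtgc
In Krt10 the letters begin at position -26 from the start. The same letters, searched on both strands in the 250 bases before each start, were present in 44.4% of 36 keratin promoters (35 genes) and in 12.4% of all 32851 promoters in the table. The AP-1 letters TGANTCA were present in 5.56% of keratin and 6.75% of all promoters, and the AP-2 letters GCCNNNGGC in 13.9% and 13.7%. These matches describe letters and not binding.

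Few members carried most of the signal. Of the 2079793 keratin UMIs in kept cells, Krt14 gave 392606, Krt10 377418, Krt15 344043, Krt17 278812 and Krt5 227942. In the 11 gate profiles (a gate in a library, with at least 20 cells) 12 members reached 100 CPM, 12 others had their highest level between 10 and 100 CPM, 15 stayed under 10 CPM and 8 were at 0. The 12 abundant members were Krt1, Krt5, Krt10, Krt14, Krt15, Krt16, Krt17, Krt23, Krt28, Krt77, Krt78 and Krt79. Across all kept cells 8 members had under 3 UMIs, 5 of them none (Krt26, Krt39, Krt40, Krt74 and Krt83).

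**Figure D1:**
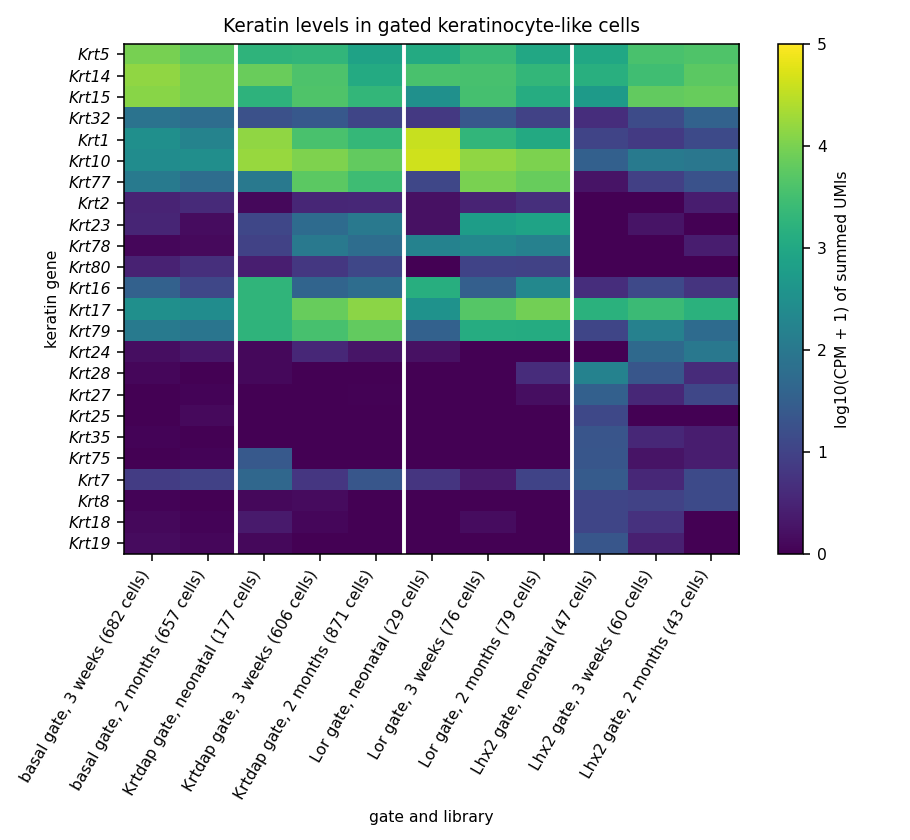
Levels of 24 keratins (rows) in the 11 gate profiles (columns, with the number of cells), as log10 of CPM plus 1. Krt5, Krt14 and Krt15 are brightest in the basal gate, Krt1 and Krt10 in the neonatal Krtdap and Lor gates, and Krt24, Krt27, Krt28, Krt25, Krt35 and Krt8 appear mainly in the Lhx2 gate.

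Keratins made up the lowest part of the transcripts in the Lhx2 gate, and the shares of the other gates overlapped. Keratins were 3.80% and 2.54% of UMIs in the basal gate at 3 weeks and 2 months. In the Krtdap gate they were 4.82%, 4.08% and 3.54% at the neonatal age, 3 weeks and 2 months, and in the Lor gate 8.86%, 4.29% and 3.32%. The Lhx2 gate was lowest, with 0.481%, 1.58% and 1.86%. In each library the Krtdap and Lor gates lay above the Lhx2 gate. The exact binomial intervals, which cover counting error only, were narrow, for example 8.81 to 8.90% for the neonatal Lor gate.

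Type I transcripts outnumbered type II transcripts in all gate profiles. The ratio of type I to type II UMIs was 2.78 and 3.12 in the basal gate at 3 weeks and 2 months, and 3.73, 3.08 and 3.27 in the Lhx2 gate from the neonatal age to 2 months. It was 1.61, 1.78 and 1.96 in the Krtdap gate and 1.27, 1.73 and 2.22 in the Lor gate. The Krtdap and Lor ratios did not overlap those of the basal and Lhx2 gates. After each cell was thinned to 1500 UMIs, the median number of keratin genes with a UMI was 4 and 3 per basal cell at 3 weeks and 2 months, and 4, 5 and 4 per Krtdap cell from the neonatal age to 2 months.

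The basal keratins were highest in the basal gate and persisted at lower levels elsewhere. Krt14, the type I partner of Krt5, stood at 14555 and 9352 CPM in the basal gate at 3 weeks and 2 months, against 7110, 3994 and 1159 CPM in the Krtdap gate and 3663, 3497 and 2055 CPM in the Lor gate. Krt5, the type II partner, stood at 9501 and 5830 CPM in the basal gate, 1822, 1986 and 751 CPM in the Krtdap gate and 1152, 2462 and 987 CPM in the Lor gate. Krt15, a type I keratin of basal cells and follicle stem cells, stood at 12668 and 9238 CPM in the basal gate, 1705, 4211 and 2075 CPM in the Krtdap gate and 319, 3347 and 1259 CPM in the Lor gate. For all 3 genes the basal values lay above all values of the Krtdap and Lor gates. In thinned basal cells Krt14 was detected in 98.97% and 96.6%, and Krt5 in 98.5% and 97.3%.

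The suprabasal keratins showed the reverse order. Krt10, the type I keratin of differentiating epidermis, stood at 263 and 290 CPM in the basal gate, 17184, 10743 and 6334 CPM in the Krtdap gate and 43747, 14830 and 10147 CPM in the Lor gate. Krt1, its type II partner, stood at 301 and 168 CPM in the basal gate, 14695, 3607 and 2119 CPM in the Krtdap gate and 37677, 1986 and 1103 CPM in the Lor gate. Krt77, a further type II keratin placed in the suprabasal set, stood at 114 and 59.7 CPM in the basal gate, 102, 5438 and 2818 CPM in the Krtdap gate and 10.6, 9825 and 6849 CPM in the Lor gate. The Krt10 and Krt1 values of the basal gate did not overlap those of the other 2 gates, whereas the neonatal values of Krt77 lay within or under its basal values. Krt2, a type II keratin of the upper epidermis, had 122 UMIs in all and reached no more than 3.80 CPM in a gate.

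Krt17, Krt79, Krt23 and Krt78 also lay higher in the Krtdap gate than in the basal gate. Krt17, a type I keratin of follicles and of stressed epidermis, stood at 312 and 269 CPM in the basal gate at 3 weeks and 2 months, 1839, 7020 and 13642 CPM in the Krtdap gate and 349, 4804 and 8431 CPM in the Lor gate. Krt79, which marks the upper hair follicle, stood at 109 and 86.7 CPM in the basal gate, 1770, 3515 and 6179 CPM in the Krtdap gate and 34.5, 1223 and 1205 CPM in the Lor gate. Krt23, a type I keratin, stood at 2.23 and 0.457 CPM in the basal gate, 10.7, 54.99 and 105 CPM in the Krtdap gate and 0.703, 603 and 792 CPM in the Lor gate. The neonatal Lor value of Krt79 lay under its basal values and that of Krt23 between them, and that of Krt17 lay above. Krt78, a type II keratin, had 2 and 3 UMIs in the basal gate, against 32, 1003 and 681 UMIs (8.55, 103 and 60.6 CPM) in the Krtdap gate and 229, 485 and 286 UMIs (161, 211 and 155 CPM) in the Lor gate.

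In the Krtdap gate against the basal gate, 7 keratins rose and 0 fell (edgeR's quasi-likelihood test, Benjamini-Hochberg adjusted over 11112 genes). Over all genes tested 7.23% rose and 5.33% fell. A low-count filter left 19 of the 47 members in the test, and members that passed it through a gate where they are high had to differ. Among these were Krt23, with 22 and 4 basal UMIs, and Krt78, with 2 and 3, so their calls are no support for a difference. Krt10 rose by 5.10 on the log2 scale (SE 0.81, adjusted p 0.0037), Krt17 by 5.10 (SE 0.89, adjusted p 0.00609) and Krt1 by 3.53 (SE 0.83, adjusted p 0.0231). Krt77 rose by 6.24 (adjusted p 0.00371), Krt79 by 6.46 (adjusted p 0.00258) and Krt23 by 6.40 (adjusted p 0.0069). Counted log2 ratios at 3 weeks and 2 months were 5.57 and 5.56 for Krt77 and 5.02 and 6.15 for Krt79, under the fitted values. Those of Krt10, Krt17 and Krt23 lay on both sides of their fitted values, and those of Krt1 just above. The fitted value of Krt78 rests on the 2 and 3 basal UMIs, and its counted log2 ratio was 8.99 (95% interval 7.14 to 12.04) at 3 weeks and 7.47 (5.91 to 9.75) at 2 months.

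The basal keratins did not pass the same test, with log2 fold changes of -2.01 for Krt5 (adjusted p 0.0595), -1.65 for Krt14 (adjusted p 0.209) and -1.10 for Krt15 (adjusted p 0.328). At an unadjusted p under 0.05, 2 keratins were lower, Krt5 and Krt32, and DESeq2 with the same design called 7 higher and 1 lower. The calls needed both libraries with basal cells: without the 3-week library, or without the 2-month library, 0 keratins passed, and without the neonatal library 9 were higher and 4 lower.

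In the Lor gate against the basal gate, 7 keratins rose (Krt1, Krt10, Krt17, Krt23, Krt77, Krt78 and Krt79) and 3 fell, where 16.5% of all genes rose and 11.0% fell. Krt10 rose by 6.20 (SE 0.86, adjusted p 0.000947), Krt77 by 6.43 (SE 0.97, adjusted p 0.00145) and Krt23 by 8.80 (SE 1.20, adjusted p 0.000859) in edgeR. The calls of Krt23 and Krt78 are again no support for a difference, since both entered the test through gates where they are high. Krt1 rose by 3.74, Krt17 by 4.28 and Krt79 by 3.50, with adjusted p-values of 0.0128, 0.00568 and 0.0105 in edgeR. Counted log2 ratios at 3 weeks and 2 months were 5.82 and 5.13 for Krt10 and 2.72 and 2.71 for Krt1, under the fitted values. Those of Krt17, Krt23, Krt77 and Krt79 lay on both sides of their fitted values. Krt5 fell by 1.92 (adjusted p 0.0354), Krt15 fell by 2.21 (adjusted p 0.0226) and Krt32, a hair keratin by its family group, fell by 2.09 (adjusted p 0.0247). Krt32 stood at 79.5 and 61.0 CPM in the basal gate at 3 weeks and 2 months, against 5.63, 21.3 and 8.70 CPM in the Lor gate, which did not overlap. Krt14 had a log2 fold change of -1.80 (adjusted p 0.0942). Krt16, a type I keratin of stressed epidermis and the companion layer, had one of 2.54 (adjusted p 0.17). Without the 3-week library 1 keratin passed, and without the 2-month library 0 passed.

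Between the Lor and Krtdap gates 1 keratin differed. Krt79 fell by 2.96 (SE 0.69, edgeR adjusted p 0.043), and it was lower in the Lor gate in each of the 3 libraries. Among all genes 3.90% rose and 0.981% fell in this contrast. No keratin rose (0 of 19, and 2 at an unadjusted p under 0.05, with 1 in DESeq2). Krt78 had a log2 fold change of 2.15 (adjusted p 0.0566) and Krt10 of 1.10 (adjusted p 0.306). The Krt79 call was lost without the 3-week library and without the 2-month library, and 5 keratins differed without the neonatal library. It was also lost with a stricter gate and with no library term, where 0 keratins passed. With at most 5% mitochondrial UMIs, and at a Leiden resolution of 0.5, the call was lost too, and 1 keratin rose and 0 fell.

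**Figure D2:**
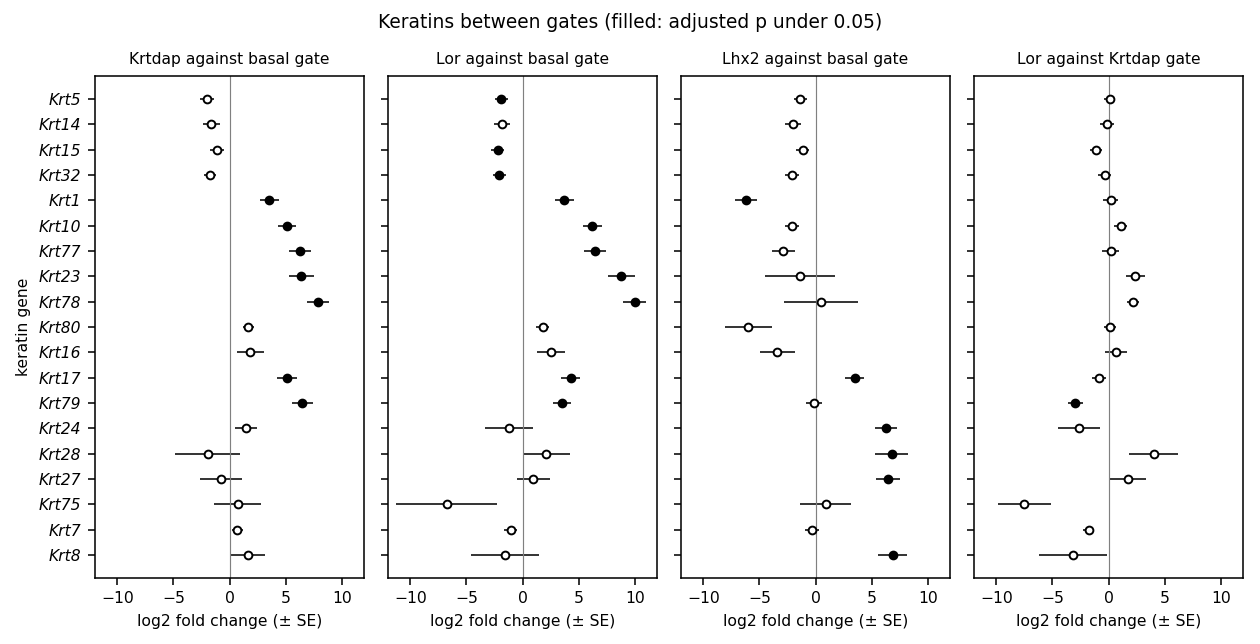
Log2 fold changes (points) with their standard errors (bars) for the 19 keratins tested between gates in edgeR, with filled points for an adjusted p under 0.05. Filled points lie to the right for Krt1, Krt10, Krt77, Krt23, Krt78, Krt17 and Krt79 in the 2 left panels, and for Krt17, Krt24, Krt28, Krt27 and Krt8 in the Lhx2 panel.

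In the Lhx2 gate against the basal gate, 5 keratins rose and 1 fell, where 2.88% of all genes rose and 2.44% fell. These calls changed under other settings. With gates on thinned cells 0 rose and 1 fell, and 1 rose and 3 fell at a Leiden resolution of 0.5. At a resolution of 2 or with doublets kept 3 rose and 0 fell. In each of these settings the neonatal basal gate also entered the fit, with 34, 25, 23 and 22 cells in this order. Krt24, a type I keratin known from quiescent follicle stem cells, stood at 0, 49.6 and 97.4 CPM in the Lhx2 gate from the neonatal age to 2 months, and at 0.508 and 1.03 CPM in the basal gate at 3 weeks and 2 months. It rose by 6.26 (SE 0.96, edgeR adjusted p 0.0112), on 58 and 63 UMIs in the Lhx2 gate at the older ages and 0 at the neonatal age. With 5 and 9 UMIs in the basal gate, Krt24 entered the test through the Lhx2 gate, so its call is no support for a difference. Krt17 stood at 1563, 2615 and 1543 CPM in the Lhx2 gate and rose by 3.49 (SE 0.85, edgeR adjusted p 0.0486). Its counted log2 ratios were lower, with 3.07 at 3 weeks and 2.52 at 2 months. Krt1 fell by 6.17 in the fit (SE 0.98, edgeR adjusted p 0.0123). Its levels were 301 and 168 CPM in the basal gate, against 9.39, 5.98 and 12.4 CPM in the Lhx2 gate. Counted log2 ratios of Krt1 were -5.65 at 3 weeks and -3.77 at 2 months, smaller falls than the fitted one. Krt10 stood at 32.4, 111 and 95.8 CPM in the Lhx2 gate, against 40.2, 61.3 and 44.5 CPM in fibroblast-like cells, and did not pass (log2 fold change -2.08, adjusted p 0.0976).

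The other 3 keratins called in the Lhx2 gate, Krt28, Krt27 and Krt8, rest on few counts and entered the test only through the gate where they were higher, so their calls are no support for a difference. Krt28, of the inner root sheath, the layer that moulds the hair, had 191, 24 and 2 UMIs in the Lhx2 gate (163, 20.5 and 3.09 CPM) and 2 and 0 in the basal gate. At 3 weeks its counted log2 ratio was 6.66 (95% interval 4.65 to 9.78). Krt27, of the same layer, had 39, 3 and 7 UMIs in the Lhx2 gate and 0 and 1 in the basal gate. Krt8, a type II keratin of simple epithelia, had 12, 10 and 8 UMIs and 1 and 0. Krt25, also of the inner root sheath, had 13 UMIs in the neonatal Lhx2 gate and 0 in the other libraries, and Krt35, a hair shaft keratin, had 23, 3 and 1. Without the 3-week library, and without the 2-month library, 0 keratins passed in this contrast.

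The hair shaft and inner root sheath sets were otherwise low. Among 12 hair shaft members, 2 reached 10 CPM in a gate (Krt32 and Krt35), and among 8 inner root sheath members 3 did (Krt25, Krt27 and Krt28). Of 5 keratins of simple epithelia, 4 reached 10 CPM. Krt7 stood at 45.9, 5.06 and 20.8 CPM in the Krtdap gate, Krt19 at 20.5, 1.71 and 0 CPM in the Lhx2 gate, and Krt18 at 10.2, 4.27 and 0 CPM there. In the neonatal Lhx2 gate Krt8 and Krt18, which pair with each other in simple epithelia, had 12 UMIs each.

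Genes that hold keratin filaments moved with the gates in both directions. Of 20 desmosome and hemidesmosome genes tested, 7 rose and 8 fell in the Krtdap gate against the basal gate (edgeR). The gate gene Col17a1 belongs to this list and was left out, and falls of genes found with it are a description. Over all genes 7.23% rose and 5.33% fell. The desmosomal cadherin genes Dsc1, Dsg1b and Dsg1a rose by 6.32, 2.21 and 2.05 on the log2 scale, whereas the laminin chain gene Lamb3, the desmoglein gene Dsg2 and the hemidesmosome integrin gene Itgb4 fell by 2.63, 2.52 and 2.15. The list's median was -0.15, against 0.03 over all genes. In the Lor gate against the basal gate 7 rose and 9 fell, where 16.5% of all genes rose and 11.0% fell. The median there was -0.13, against -0.04 over all genes. In the Lhx2 gate 0 rose (0 of 20) and 1 fell, Dsg1a by 2.35 (edgeR adjusted p 0.0252). Over all genes 2.88% rose and 2.44% fell there.

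Genes of the cornified envelope and of keratohyalin granules, without the gate genes, rose with the suprabasal keratins. Of 18 tested, 15 rose and 1 fell in the Krtdap gate against the basal gate, where 7.23% of all genes rose and 5.33% fell. Krtdap and Lor, which set the gates, belong to this list, so a rise of genes found with them is built into these contrasts. The low-count filter could also have let in genes through a gate where they are high. The counts of this list are therefore a description and no support for a difference. The list's median log2 fold change was 5.70, against 0.03 over all genes. The small proline-rich gene Sprr1b rose by 7.69, the protease gene Klk7 by 7.04 and the corneodesmosin gene Cdsn by 6.93, and the transglutaminase gene Tgm3 fell by 2.71. In the Lor gate against the Krtdap gate 11 rose and 0 fell, where 3.90% of all genes rose and 0.981% fell, led by the filaggrin family genes Flg2, Hrnr and Flg with 8.31, 7.25 and 6.63. In that contrast 1 of 19 tested keratins passed. In the Lhx2 gate against the basal gate 3 rose and 2 fell, where 2.88% of all genes rose and 2.44% fell. The median was -2.11, against -0.03 over all genes. Calml3, a calmodulin-like gene, rose by 4.29 and Tgm3 fell by 7.85.

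Among 14 transcription factors known to act on keratin genes, 7 rose and 0 fell in the Krtdap gate against the basal gate, where 7.23% of all genes rose and 5.33% fell. The list's median was 1.47, against 0.03 over all genes. Grhl3, Foxn1 and Cebpa rose by 2.92, 2.89 and 2.13, with edgeR adjusted p-values of 0.000953, 0.00568 and 0.000142. In the Lor gate 9 rose and 0 fell, where 16.5% of all genes rose and 11.0% fell, with a median of 1.69 against -0.04. In the Lhx2 gate, where the median was 0.20 against -0.03, Dlx3, Hoxc13 and Sox9 rose by 4.82, 4.76 and 2.11, and Klf5 fell by 1.51. Over all genes 2.88% rose and 2.44% fell there. Of 5 other intermediate filament genes tested, Lmnb1, a nuclear lamin gene, fell by 1.39 in the Krtdap gate. Of 57 Krtap rows 1 could be tested, Krtap17-1, with 5, 22 and 21 UMIs in the Lhx2 gate and 0 and 1 in the basal gate.

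Between the neonatal and the 3-week library keratins differed in both directions. The rule for ages was applied to neighbouring ages only. In the Krtdap gate, of 14 keratins at 10 CPM or more in either library, 5 were more than 2-fold higher at 3 weeks (Krt15, Krt17, Krt23, Krt77, Krt78) and 4 more than 2-fold lower (Krt1, Krt7, Krt16, Krt75). The same rule was met by 9.24% of all genes on the higher and 7.19% on the lower side. Krt77 was 53.4-fold higher at 3 weeks than in the neonatal library (5438 against 102 CPM). Krt16 was 47.5-fold lower (39.4 against 1874 CPM), and Krt1 was 4.07-fold lower (3607 against 14695 CPM). Krt75, a type II keratin of the companion layer, had 90 UMIs in the neonatal Krtdap gate and 0 at 3 weeks, so it was at least 77.7-fold lower against a floor of 3 UMIs. Krt10 was 1.60-fold lower and stayed under the rule.

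The cells behind these values differed in cluster as well as in age. Of 177 neonatal Krtdap cells, 105 lay in a cluster found only in the neonatal library (cluster 34, led by the cystatin genes BC100530, Stfa3 and Stfa1) and 41 in cluster 19. At 3 weeks 376 of 606 lay in cluster 9 and 135 in cluster 18, and at 2 months 537 and 292 of 871. Age and cell state cannot be told apart in these values. In cluster 34 Krt10 and Krt1 stood at 32684 and 28092 CPM, Krt77 at 52.8 CPM and Krt16 at 2278 CPM.

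The Lor gate repeated the pattern on fewer cells. Gates were set on raw UMIs, and the median depth of Lor cells was 45734, 22933 and 16676 UMIs in order of age. With gates on thinned cells the neonatal Lor gate held 4 cells, under the minimum of 20. Of 13 keratins 7 were more than 2-fold higher at 3 weeks than in the neonatal library (Krt5, Krt15, Krt17, Krt23, Krt32, Krt77, Krt79) and 4 lower (Krt1, Krt10, Krt12, Krt16), beside 19.6% and 7.38% of all genes. Krt77 was 931-fold higher (22566 against 15 UMIs) and Krt1 was 18.97-fold lower (1986 against 37677 CPM). Krt12, known from the corneal epithelium, had 139 UMIs (97.8 CPM) in the neonatal Lor gate and 0 at 3 weeks. An antisense gene, with a row of its own in the deposited counts, overlaps Krt12 on the other strand. Whether its reads have a part in the Krt12 counts was not tested. Of the 29 neonatal Lor cells 25 lay in cluster 34. At 3 weeks 24 of 76 lay in cluster 36 and 22 in cluster 18. Another 12 lay in cluster 9, 11 in cluster 19 and 7 in cluster 7. At 2 months 25 of 79 lay in cluster 36 and 41 in cluster 18. Levels in the Lor gate are thus means over cells of several clusters, and age and cell state cannot be told apart in them either.

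**Figure D3:**
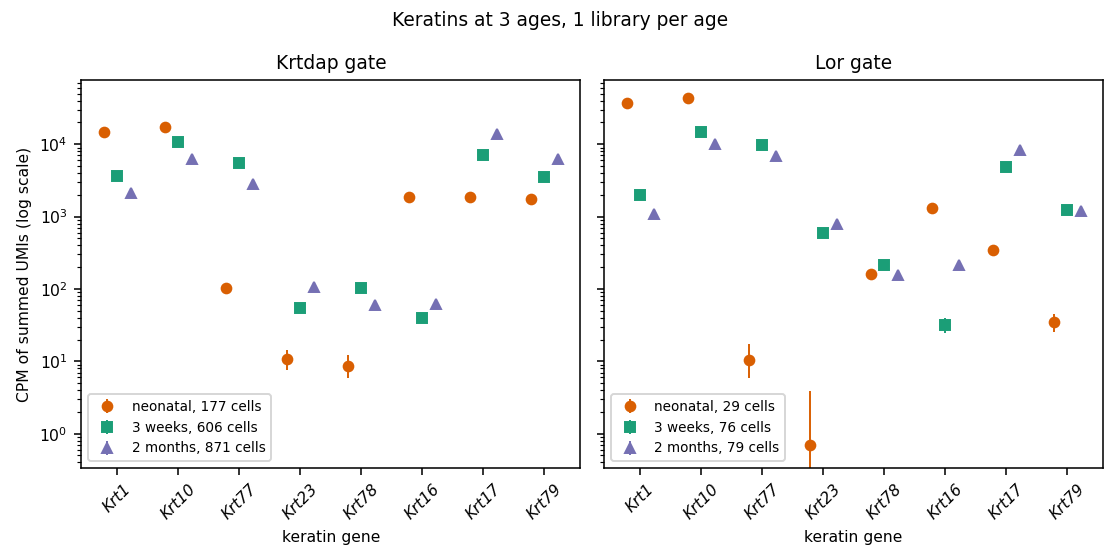
CPM on a log axis of 8 keratins in the Krtdap gate (left) and the Lor gate (right), with 1 library per age and bars for 95% Poisson intervals, which are mostly smaller than the symbols. Neonatal points are highest for Krt1, Krt10 and Krt16 and lowest for Krt77, Krt23, Krt17 and Krt79.

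In the Lhx2 gate 8 keratins were more than 2-fold higher and 8 lower at 3 weeks than in the neonatal library, of 18 measured, where 9.48% and 6.65% of all genes met the rule. At a minimum of 50 CPM the 16 became 6. Among the 16, Krt25 had 0 against 13 UMIs, Krt32 15 against 4, Krt16 14 against 4, and Krt18 5 against 12, with an interval of -3.12 to 0.35 for the log2 ratio that includes no difference. Krt15 stood at 523 and 6221 CPM and Krt5 at 934 and 3692 CPM in the neonatal and 3-week library. The lower ones were Krt25, Krt27, Krt28 and Krt35 of the hair and its sheath, Krt7, Krt18 and Krt19 of simple epithelia, and Krt75. Most Lhx2 cells were of cluster 19 (47 of 47, 55 of 60 and 31 of 43). From 3 weeks to 2 months 5 were higher and 3 lower of 15, with 10.2% and 10.7% of all genes, and Krt1, Krt7, Krt27 and Krt77 among the higher ones had 11 UMIs or fewer.

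From 3 weeks to 2 months 1 to 5 keratins were past 2-fold in the other gates. In the basal gate 0 of 10 were more than 2-fold higher and 1 was lower, Krt16 with 34.01 and 10.6 CPM, beside 1.24% and 1.20% of all genes. In the Krtdap gate Krt7 was higher and Krt5, Krt14, Krt15 and Krt32 were lower (2.38% and 3.09% of all genes). Krt14 was 3.44-fold lower there, at 1159 against 3994 CPM. Krt17 and Krt79 were 1.94-fold and 1.76-fold higher, under the rule. In the Lor gate Krt16 was 6.79-fold higher and Krt5, Krt15 and Krt32 were lower (3.07% and 5.19% of all genes). Over all keratinocyte-like cells 6 keratins were higher and 7 lower at 3 weeks than in the neonatal library (8.25% and 5.72% of all genes), and Krt7 alone was past 2-fold from 3 weeks to 2 months, on the higher side (1.38% higher and 1.90% lower of all genes).

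Krt10 and Krt79 marked overlapping but different cells. After thinning to 1500 UMIs, 47.4% of 605 Krtdap cells at 3 weeks had Krt10 without Krt79, 21.2% had Krt79 without Krt10 and 24.96% had both. At 2 months these shares were 31.8%, 29.9% and 36.7% of 870 cells. The clusters separated the pair further. Cluster 36, with 58 and 50 cells at 3 weeks and 2 months, had Krt10 without Krt79 in 98.3% and 98.0%. Cluster 18, led by Cst6 and Sprr1a, had Krt79 without Krt10 in 49.7% and 50.3% and both in 43.8% and 40.8%. The clusters were built without keratins, yet from the same cells, so these shares are a description. In fibroblast-like cells, taken as background, Krt79 was detected in 0.0648%, 0.479% and 1.04% of thinned cells.

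**Figure D4:**
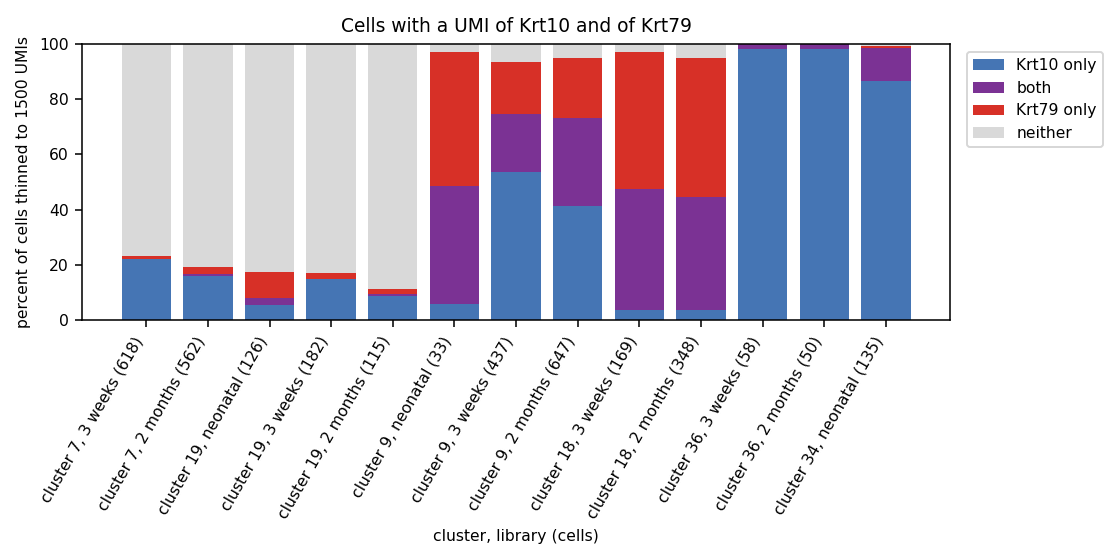
Percent of cells, thinned to 1500 UMIs, with a UMI of Krt10 only, Krt79 only, both or neither, by keratinocyte-like cluster and library (number of cells in parentheses). Clusters 36 and 34 are nearly all Krt10 only, cluster 18 splits between both and Krt79 only, and clusters 7 and 19 are mostly neither.

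In cluster 18 Krt17 was found in most cells, with or without Krt10. Krt17 and Krt10 were found together in 46.2% of 169 thinned cells at 3 weeks and 42.8% of 348 at 2 months, and Krt17 without Krt10 in 51.5% and 53.4%. Both Krt17 and Krt79 were found in 93.5% and 91.1%. In cluster 36 both were found in 0 of 58 cells at 3 weeks and 1 of 50 at 2 months. Cluster 18 held Krt17 at 24409 and 27765 CPM and Krt79 at 10261 and 10765 CPM. Cluster 36 held Krt17 at 396 and 1464 CPM and Krt79 at 2.69 and 14.5 CPM. Krt77 and Krt10 were found together in all thinned cells of cluster 36 (100% at both ages). Krt17 and Krt14 each share 17.2% of their 31-base words near the transcript end with other genes, including each other. Krt16 shares 32.6% and Krt7 16.4%. Some reads of these 4 genes could therefore have been split or dropped in counting.

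Sebaceous-like cells carried a set of their own. Their keratin share was 0.620% and 0.632% of UMIs at 3 weeks and 2 months, in 46 and 107 cells. Krt14 stood at 3568 and 3834 CPM, Krt79 at 1121 and 1025 CPM, and Krt15 at 786 and 757 CPM. Krt10 stood at 27.8 and 28.0 CPM, under its level in fibroblast-like cells.

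Keratin UMIs outside epithelium set the background. In fibroblast-like cells keratins were 0.00575%, 0.0145% and 0.0117% of UMIs from the neonatal age to 2 months, against 4.25%, 3.81% and 3.04% in keratinocyte-like cells. Krt10 stood there at 40.2, 61.3 and 44.5 CPM, above Krt14 at 3.43, 21.3 and 12.3 CPM. Thinned fibroblast-like cells had a Krt10 UMI in 5.87%, 8.59% and 7.90% (29.6%, 46.3% and 35.0% unthinned) and a Krt14 UMI in 0.475%, 2.55% and 1.78%. Their median depths were 9083, 12081 and 9819 UMIs, against 17800, 12121 and 10627 in keratinocyte-like cells.

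The balance of Krt10 and Krt14 in fibroblast-like cells was not that of the keratinocyte-like cells beside them. Of the UMIs of both genes, Krt10 made 92.1% (95% interval 90.9 to 93.3%), 74.2% (73.0 to 75.4%) and 78.4% (76.9 to 79.9%) among fibroblast-like cells. The same share was 77.3%, 41.9% and 47.5% for the keratinocyte-like class. The intervals did not overlap in any of the 3 libraries. Other classes outside epithelium did not share 1 balance. At 2 months Krt10 made 40.2% (31.6 to 49.2%) in T or innate lymphoid-like, 54.3% (39.0 to 69.1%) in macrophage-like and 54.3% (36.6 to 71.2%) in mural-like cells, intervals that include the keratinocyte-like share. It made 26.9% and 11.5% in endothelial-like cells at 3 weeks and 2 months, and 21.7% in neonatal macrophage-like cells. Other classes lay above the keratinocyte-like share, as fibroblast-like cells did. In the neonatal library these were mural-like cells with 90.8% (86.0 to 94.4%) and muscle-like cells with 100% (88.4 to 100%). Muscle-like and erythroid-like cells had 71.2% and 76.8% at 3 weeks, and Schwann-like cells 71.6% (61.0 to 80.7%) at 2 months. An antisense gene, Gm11940, overlaps Krt10 by 558 bases on the other strand and has a row of its own in the deposited counts. Whether it, free RNA or transcription in fibroblasts has a part in the Krt10 counts was not tested. In the basal gate thinned cells had a Krt10 UMI in 18.8% and 17.4%, above the fibroblast-like share, and in the Lhx2 gate in 6.38%, 10% and 2.38%, whose intervals include it.

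**Figure D5:**
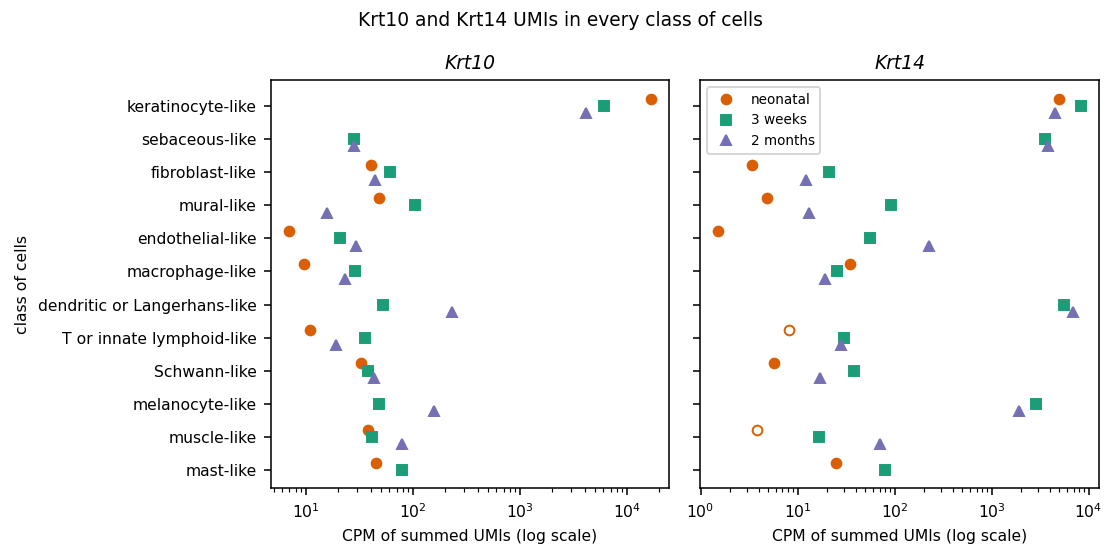
CPM (log axis) of Krt10 and Krt14 summed over classes of cells, by library, with open symbols for classes with 0 UMIs drawn at the floor of 3 UMIs and profiles under 20 cells left out. Krt10 is at 229.9 CPM or less in the classes shown other than keratinocyte-like cells, and Krt14 is at 1899.8 CPM or more in sebaceous-like, dendritic or Langerhans-like and melanocyte-like cells.

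Classes of the epidermis other than keratinocytes also held basal keratins. Dendritic or Langerhans-like cells, 109 at 3 weeks and 127 at 2 months, held Krt14 at 5525 and 6958 CPM, Krt15 at 4788 and 6294 CPM and Krt5 at 3732 and 4270.4 CPM. Krt10 stood at 51.9 and 229.9 CPM in them. These means were carried by a subset, since 57.8% and 44.1% of the thinned cells had no keratin UMI. The class joins cluster 37 (32 and 64 cells), whose top 10 genes include the keratinocyte genes Lgals7 and Col17a1 and whose median depth was 2.94 times that of its libraries, and cluster 33 (77 and 63 cells), with neither gene there and a depth of 0.679 times. Melanocyte-like cells held Krt14 at 2864 and 1899.8 CPM at the same ages. Such cells sit among basal keratinocytes, and the part of doublets or attached keratinocyte RNA in these values was not tested.

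Some members had most of their UMIs outside keratinocyte-like cells. Krt20, known from the gut lining and Merkel cells, had 0.658% of its 608 UMIs in keratinocyte-like cells, and 215 and 333 UMIs in fibroblast-like cells at 3 weeks and 2 months (3.34 and 6.58 CPM). Krt8 had 9.15% of 426 UMIs in keratinocyte-like cells, with 189 and 163 in fibroblast-like cells at the same ages (2.94 and 3.22 CPM). Krt36, a hair keratin, had 5.06% of 178 UMIs in keratinocyte-like cells and 91 and 62 in fibroblast-like cells (1.42 and 1.23 CPM). Krt4, of mucosal epithelia, had 32 and 24 of its 100 UMIs in mast-like cells of the neonatal and 3-week library. These 4 genes were singled out after their values were seen, and all lay under 10 CPM in fibroblast-like cells.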

How the data were processed

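UMI counts per gene and cell barcode were deposited by the authors for 3 libraries of dissociated mouse dorsal skin, and Cell Ranger 3.0.2, mm10 as genome build and Seurat 2.0 are listed in the submitters' processing notes. The number of animals per library is not stated. Barcodes with at least 300 genes, 500 UMIs and at most 10% mitochondrial UMIs were kept, and 475, 211 and 348 likely doublets were removed with Scrublet (in the neonatal library the highest 6% of scores, since its own threshold marked 0.0253%). Cells were clustered with scanpy 1.11.5 (Leiden, resolution 1) without keratin and Krtap genes and named from marker genes. A gate gene was called present above the 99th percentile of fibroblast-like cells of the same library, with at least 2 UMIs for Krtdap and Lor. Counts were summed per gate and library (at least 20 cells) and tested with edgeR 4.0.16 (quasi-likelihood, TMM, gate and library as terms, adjusted p under 0.05), after a trial on simulated data. The standard error is the absolute log2 fold change divided by the square root of the F statistic. Ages were compared by CPM with 95% Poisson intervals, which cover counting error only, at 10 CPM or more and past 2-fold, with a floor of 3 UMIs. Members and lists were chosen with earlier results of these data known. Named with values were keratins at 100 CPM in a gate, keratins past the threshold, and the 3 largest called changes of each partner list; others named were chosen after their values were seen.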

Additional observations from a re-analysis of the deposited data

Results flagged for a closer look

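For Krt77 and Krt23 the difference between the Lor and the Krtdap gate had opposite directions in the neonatal library and in the other 2 libraries. The log2 ratio of Krt77 was -3.27 in the neonatal library (15 against 381 UMIs), 0.85 at 3 weeks and 1.28 at 2 months. That of Krt23 was -3.92 in the neonatal library, on 1 UMI against 40 (95% interval -9.26 to -1.36), 3.45 at 3 weeks and 2.91 at 2 months. With 1 library per age the difference between ages was not tested.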

How the results depend on the processing

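Of 286 recomputed values of the 24 keratin calls between gates, 234 stayed past the threshold in the same direction, 52 no longer passed and 0 reversed. When a library was left out, 47 of 71 no longer passed. The number of keratins called (main values 7, 10, 6 and 1 for Krtdap, Lor and Lhx2 against basal and for Lor against Krtdap) ranged over the libraries left out from 0 to 13, 0 to 13, 0 to 7 and 0 to 5. Without the 3-week or the 2-month library the basal gate has 1 profile, which is assumed to vary like the other gates. With no library term the 4 counts were 2, 5, 0 and 0. With no filter on low counts, Krtdap against basal gave 11, Lhx2 against basal 10 and Lor against Krtdap 3, and with at least 50 cells per profile they gave 13, 11 and 5. Lhx2 against basal gave 1 with gates on thinned cells, 3 with doublets kept and 3 at resolution 2. Lor against Krtdap gave 4, 2 and 2 under these settings, 2 with DESeq2, 0 with a stricter gate (a higher percentile and at least 2 UMIs for each gate gene) and 2 with at least 10 cells per profile, a setting chosen after seeing the data. At resolution 0.5, and with at most 5% mitochondrial UMIs, Lor against Krtdap kept a count of 1 with the direction changed. There 1 keratin rose and 0 fell, against 0 and 1 in the main fit. Some settings also changed which profiles were in the fit. The neonatal basal gate, left out of the main fit with 18 cells, entered with gates on thinned cells and with doublets kept. It also entered at resolution 0.5, at resolution 2 and with the stricter gate. With gates on thinned cells the neonatal Lor gate held 4 cells and dropped out. The cause of these shifts was not tested.

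Counts past 2-fold between ages moved with the minimum level. With no minimum beyond 3 UMIs, they were 3 (main 1) in the basal gate, 14 (main 9) in the Krtdap gate from neonatal to 3 weeks, 7 (main 4) in the Lor gate from 3 weeks to 2 months, and 27 (main 13) and 6 (main 1) over keratinocyte-like cells in the 2 steps. At 50 CPM they were 0 in the basal gate, 3 (main 5) in the Krtdap gate and 1 (main 8) in the Lhx2 gate from 3 weeks to 2 months, 6 (main 16) in the Lhx2 gate from neonatal to 3 weeks, and 8 and 0 over keratinocyte-like cells. With means of CPM per cell, the Lor gate gave 7 and keratinocyte-like cells 2 from 3 weeks to 2 months, and with at most 5% mitochondrial UMIs the Lhx2 gate gave 5. With the stricter gate the keratin share was 3.78% and 2.49% in the basal gate, 4.98%, 4.15% and 3.62% in the Krtdap gate, 3.29% in the Lor gate at 2 months, and 1.40% and 1.48% in the Lhx2 gate at 3 weeks and 2 months. Without thinning, Krt10 was found in 29.6%, 46.3% and 35.0% and Krt14 in 2.97%, 18.7% and 9.31% of fibroblast-like cells. Contrasts with the Fa2h gate gave values under 2 settings only. With at most 5% mitochondrial UMIs the gate held 24 and 37 cells at 3 weeks and 2 months. There 1 of 18 tested keratins rose and 3 fell against basal, beside 1159 and 594 of all 10995 genes. Against Lhx2 4 keratins rose and 1 fell, beside 1497 and 914 of all genes. With at least 10 cells per profile the Fa2h gate had 1 profile, the 14 cells of the 2-month library, so no counts are given. Gates were paired within libraries by the library term in all fits but the 1 without it.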
